A study of Mus musculus with 13 samples.

Results

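The distal convoluted tubule (DCT) and the connecting tubule (CNT) are neighbouring segments of the mouse nephron, and their open chromatin was compared here in nuclei of adult kidneys. The members were the nuclei that the deposited annotation places in the DCT and CNT clusters of the 3 adult snATAC-seq samples, 1 taken at P21 and 2 at P56. They numbered 842 DCT and 643 CNT nuclei, together 1485 of 16887 adult nuclei and of 28316 nuclei in all. In the P21 sample, P56 sample 1 and P56 sample 2 there were 101, 307 and 434 DCT nuclei and 83, 294 and 266 CNT nuclei. The 2 clusters made up 3.10%, 4.43% and 7.0% (DCT) and 2.55%, 4.24% and 4.29% (CNT) of the nuclei with 1 of the 13 cell type names, so both were smallest in the P21 sample.

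The DCT reabsorbs sodium chloride through the thiazide-sensitive cotransporter NCC, encoded by Slc12a3, whose activity is set by the WNK and SPAK kinases, and it takes up magnesium through the apical channel TRPM6. The CNT follows it and joins the nephron to the collecting duct. Its cells take up calcium through the apical channel TRPV5, carry it through the cytosol on calbindins and extrude it through the exchanger NCX1, encoded by Slc8a1. They also reabsorb sodium through the epithelial sodium channel ENaC under aldosterone. The change from one segment to the next is gradual in the mouse, and cells of the late DCT share genes with the CNT.

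All samples were whole kidneys of untreated mice, collected at 3 weeks (P21), at 8 weeks (P56) or, for a later comparison, at birth (P0, 2 samples); strain, sex and the number of mice in a sample were not given for these libraries in the sources used here. In single-nucleus ATAC-seq a transposase cuts accessible DNA, and each nucleus is scored as open or not at each of 300755 peaks. A cluster's count at a peak was thus the number of its nuclei with that peak open in 1 sample. The 2 clusters of a sample came from the same library, so the sample was kept as a block. The median DCT nucleus had 3270, 2549 and 5611.5 open peaks in the P21 sample, P56 sample 1 and P56 sample 2, and the median CNT nucleus had 3936, 3240.5 and 6190.5. P56 sample 2 was the deepest and CNT nuclei were deeper than DCT nuclei in each sample, so percentages of open nuclei are best read within a sample. Of 1484 barcodes among the 1485 nuclei, 1 occurred in more than 1 sample. The clusters had been drawn by the study on the chromatin of these same nuclei, from all 5 samples together, so p-values rank peaks and genes here and do not show independently that the clusters differ. The samples' sources are not described as separate mice in the labels. With the sample as a block, p-values thus rest on how the DCT against CNT difference varied over these 3 libraries.

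The names of the clusters were checked against marker genes, of which Slc12a3 and Pvalb (DCT) and Trpv5 (CNT) had served the study to name them and are no finding. Gene activity, the open calls at peaks in the gene body and 2 kb upstream, is given per 10000 open calls of the cluster in that sample. Summed over 5 DCT markers it was 13.2 to 17.2 in DCT and 5.87 to 8.28 in CNT, and summed over 8 CNT markers 3.82 to 4.13 in DCT and 10.8 to 15.1 in CNT. Neither pair of ranges overlapped. By edgeR, the main test below, each of the 13 markers was called on the side of its name, against 5.39% (DCT) and 6.46% (CNT) of all genes tested. DESeq2, the second test below, called 4 of the 5 and 7 of the 8. The sums include the naming genes, and Slc12a3 alone had 6.34 to 8.50 in DCT and 2.28 to 3.75 in CNT. The clusters were drawn on the chromatin of these nuclei, so this describes the labels and is no separate result. The sum over principal cell markers was 1.74 to 2.18 in DCT and 3.01 to 3.18 in CNT, against 6.15 to 7.07 in the principal cell cluster. Loop of Henle markers summed to 2.82 to 3.67 in DCT and 2.72 to 2.89 in CNT, against 8.69 to 9.35 in their own cluster. Proximal tubule markers summed to 2.16 to 2.96 in DCT and 1.42 to 2.96 in CNT, against 14.0 to 18.1 in the PT cluster, and Slc34a1, Hnf4a and Slc22a8 were among those called higher in DCT. Intercalated cell markers summed to 1.79 to 2.27 in DCT and 2.16 to 2.61 in CNT, against 9.04 to 9.96 in their own cluster, and Atp6v1b1, 1 of the 5 tested, was called higher in CNT. Immune markers summed to at most 0.32 in DCT and 0.49 in CNT, and Ptprc, the 1 member tested, was called higher in CNT. The part of these other cell types in the results below was not tested.

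The sequences of a few called peaks are given first, because most called peaks lay in introns or away from genes, where only the DNA identifies the element. Each line gives the central 300 bases of a peak on the plus strand of GRCm38 (mm10), 5′ to 3′, read from the reference genome. Capitals mark exact matches on either strand to 3 short words, and a line without capitals holds none of them. The words are AGATAA, known from the Gata factor family, AAGGTCA, known from the estrogen-related receptors such as Esrrb, and GTTAAT, part of the site of HNF1 factors. The distal Sox9, Adamtsl3, Ptprn2 and Anxa1 peaks were among the 8 largest changes each way, and the Scnn1b and Bmpr1b peaks were chosen after their values were seen, as elements in genes of sodium transport and BMP signalling. The first 3 were more open in DCT and the last 3 in CNT.
DCT, distal, nearest start Sox9 (chr11:112588421-112588720): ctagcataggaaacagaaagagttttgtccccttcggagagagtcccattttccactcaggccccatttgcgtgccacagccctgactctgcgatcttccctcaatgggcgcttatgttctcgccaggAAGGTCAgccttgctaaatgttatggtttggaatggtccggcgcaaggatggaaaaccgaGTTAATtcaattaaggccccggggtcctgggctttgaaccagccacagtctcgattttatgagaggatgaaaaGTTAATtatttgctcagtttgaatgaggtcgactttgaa
DCT, intron of Adamtsl3 (chr7:82383339-82383638): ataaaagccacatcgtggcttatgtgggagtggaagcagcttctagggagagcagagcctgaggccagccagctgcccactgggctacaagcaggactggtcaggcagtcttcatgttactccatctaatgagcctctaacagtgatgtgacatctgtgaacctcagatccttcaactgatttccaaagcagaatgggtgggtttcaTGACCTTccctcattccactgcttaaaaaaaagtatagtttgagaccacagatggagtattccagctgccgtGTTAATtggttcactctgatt
DCT, intron of Ptprn2 (chr12:116772257-116772556): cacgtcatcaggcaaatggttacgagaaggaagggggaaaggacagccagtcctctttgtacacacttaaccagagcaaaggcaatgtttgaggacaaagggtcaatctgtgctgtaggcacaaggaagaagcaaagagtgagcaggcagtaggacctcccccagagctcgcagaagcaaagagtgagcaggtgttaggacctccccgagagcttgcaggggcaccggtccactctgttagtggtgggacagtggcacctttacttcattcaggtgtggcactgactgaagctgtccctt
CNT, intron of Scnn1b (chr7:121874605-121874904): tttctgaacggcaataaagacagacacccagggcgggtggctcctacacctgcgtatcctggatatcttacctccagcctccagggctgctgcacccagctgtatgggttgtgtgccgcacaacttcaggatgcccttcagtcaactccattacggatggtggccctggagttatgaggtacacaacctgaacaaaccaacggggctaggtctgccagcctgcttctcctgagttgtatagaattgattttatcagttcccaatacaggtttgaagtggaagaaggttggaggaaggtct
CNT, intron of Bmpr1b (chr3:141966480-141966779): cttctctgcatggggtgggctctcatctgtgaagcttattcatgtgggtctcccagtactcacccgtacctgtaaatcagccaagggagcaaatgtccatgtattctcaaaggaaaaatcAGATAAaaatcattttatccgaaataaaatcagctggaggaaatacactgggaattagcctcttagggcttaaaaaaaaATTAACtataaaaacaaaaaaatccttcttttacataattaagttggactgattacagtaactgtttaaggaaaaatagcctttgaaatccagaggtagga
CNT, distal, nearest start Anxa1 (chr19:19783562-19783861): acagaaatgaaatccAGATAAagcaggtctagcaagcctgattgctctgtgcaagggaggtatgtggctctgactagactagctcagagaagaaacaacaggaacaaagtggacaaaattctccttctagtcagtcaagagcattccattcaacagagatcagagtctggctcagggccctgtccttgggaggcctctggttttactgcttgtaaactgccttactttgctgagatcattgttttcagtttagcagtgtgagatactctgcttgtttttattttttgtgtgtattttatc

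Over the whole genome, 22742 peaks (7.56% of the list) had enough open nuclei to be tested, with filtering on the larger group, so that a peak open in 1 of the clusters alone could pass. By edgeR's quasi-likelihood test with Benjamini-Hochberg adjustment at 0.05, 1555 peaks (6.84%) were more open in DCT and 1862 (8.19%) in CNT. Of these 3417 peaks, 3105 differed in the same direction in all 3 samples. The differences were larger on the CNT side, where 280 peaks changed at least 4-fold against 94 on the DCT side, and the median log2 fold change (DCT over CNT) was -1.18 against 1.03. In gene activity 13410 protein-coding genes were tested, of which 723 (5.39%) were higher in DCT and 866 (6.46%) in CNT. At least 2-fold changes were found in 110 and 237 genes, and at least 4-fold changes in 3 and 29. DESeq2 with the same design called fewer features, 317 and 649 peaks and 58 and 143 genes, each of which edgeR had called in the same direction. Without the block 467 and 810 peaks and 91 and 200 genes were called. Statements below that groups did not overlap describe the printed values alone. The share of all tested features without overlap is not given here, so such statements carry no further weight.

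A few of the genes for sodium chloride transport and its regulation were more open in DCT. Of 21 genes listed for NCC and its kinases, 5 were called higher in DCT (background 5.39%) and 0 in CNT (background 6.46%; 1 at an unadjusted edgeR p under 0.05, 0 by DESeq2), with a median log2 fold change of 0.13 against 0.01 over all genes tested. DESeq2 called 3 of the 5, which include Slc12a3, a gene that had named the cluster. Slc12a3 itself (chr8:94329201-94366214) had 8.50, 7.92 and 6.34 open calls per 10000 in DCT of the P21 sample, P56 sample 1 and P56 sample 2 and 3.07, 2.28 and 3.75 in CNT. The groups did not overlap, and the fitted log2 fold change was 1.18 ± 0.10 (SE, n = 3; edgeR adjusted p = 6.65e-12). Ppp1r1a, an inhibitor of protein phosphatase 1, rose from 0.299, 0.231 and 0.442 in CNT to 0.944, 0.606 and 0.744 in DCT (log2 0.98 ± 0.15, edgeR adjusted p = 8.25e-06). Klhl3, the adaptor that delivers WNK kinases for degradation, was higher in DCT by log2 0.42 ± 0.07 (edgeR adjusted p = 2.85e-05), with 7.55, 5.25 and 5.07 against 4.51, 3.71 and 4.17, a call lost without the block and over promoters alone. Slc12a7, the potassium chloride cotransporter KCC4, was higher in DCT by log2 0.29 ± 0.09, a call lost without either P56 sample, with DESeq2 and without the block. Wnk1 and Wnk4, the kinases upstream of NCC, did not pass, with log2 differences of 0.04 ± 0.08 and 0.11 ± 0.10.

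Slc12a3 was open along its length in DCT rather than at its promoter alone. Of its 15 tested peaks 14 were called more open in DCT and 0 in CNT (also 0 at an unadjusted edgeR p under 0.05), the largest net count of any gene, and DESeq2 called 8 of the 14. At the start site 45.5%, 26.4% and 59.7% of DCT nuclei and 14.5%, 6.80% and 38.7% of CNT nuclei were open in the P21 sample, P56 sample 1 and P56 sample 2. Each sample put DCT above CNT although the 2 ranges overlapped between samples. An intronic peak (chr8:94345347-94345734) gave 16.8%, 6.84% and 27.6% against 3.61%, 0.68% and 10.2%, which was log2 1.83 ± 0.25 (edgeR adjusted p = 3.7e-10). The peak over the last exons (chr8:94362093-94366316) behaved differently between samples, with 49.5%, 83.4% and 28.6% of DCT nuclei and 33.7%, 26.9% and 28.9% of CNT nuclei. In P56 sample 2 the clusters were equal there to within 1 percentage point, in P56 sample 1 they were far apart, and this peak was among the 6 that DESeq2 did not call.

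**Figure D1:**
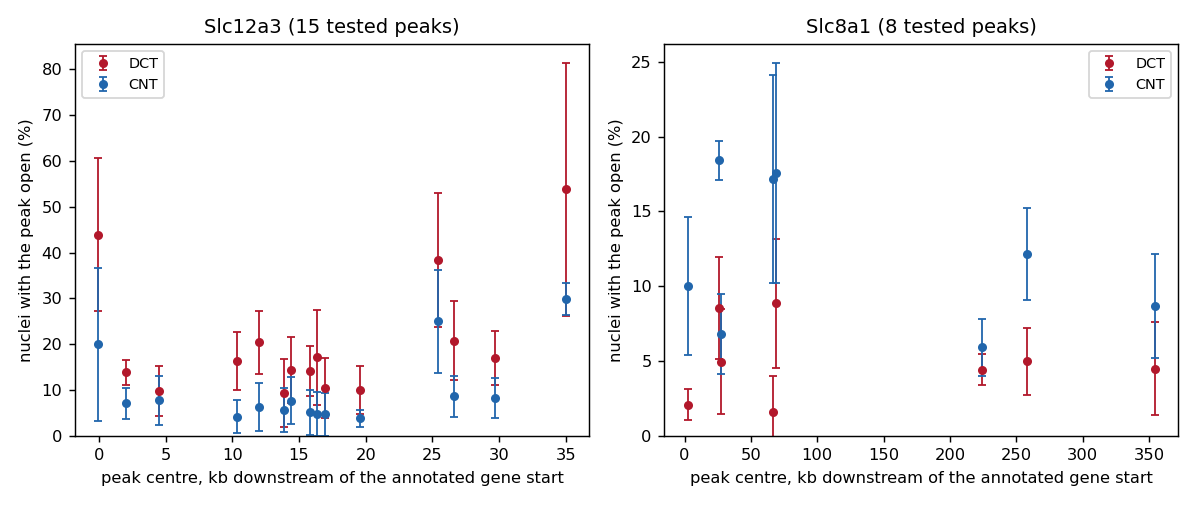
Share of nuclei with each tested peak open (%, mean of 3 adult samples, bars SD) against the distance of the peak downstream of the gene's start (kb) for Slc12a3 and Slc8a1, with DCT and CNT drawn apart. At Slc12a3 14 of 15 peaks were called more open in DCT, and at Slc8a1 5 of 8 were called more open in CNT.

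Several genes of magnesium handling were higher in DCT. Of 13 listed genes 11 were tested, 6 were called higher in DCT and 1 in CNT (background 5.39% and 6.46% of all genes tested), and the median log2 fold change was 0.37. DESeq2 called 3 of the 7. The 6 include Pvalb, which had named the cluster, and Trpm6 and Egf, which were among the DCT markers of the name check. Trpm6, the apical magnesium channel, had 3.64, 2.34 and 2.59 open calls per 10000 in DCT and 2.04, 1.60 and 1.84 in CNT, so the groups did not overlap (log2 0.54 ± 0.08, edgeR adjusted p = 2.46e-06). The call was lost without the block and over promoters alone. Of its 5 tested peaks 3 were called more open in DCT by edgeR, with DESeq2 adjusted p of 0.404, 0.0769 and 0.0585, among them an intronic one (chr19:18772802-18773805) open in 44.6%, 21.8% and 53.9% of DCT nuclei and 28.9%, 18% and 36.8% of CNT nuclei. Egf, the precursor of the growth factor that stimulates TRPM6, reached 2.70, 2.30 and 1.81 in DCT against 0.897, 0.734 and 1.06 in CNT (log2 1.11 ± 0.11, edgeR adjusted p = 4.07e-10). The difference between its 2 tested start sites was not itself tested. The one at chr3:129754261-129755731 was called more open in DCT (log2 1.29 ± 0.26), and the one at chr3:129724948-129725736 was not called (log2 -0.41 ± 0.21). Egfr, the receptor of EGF, was higher in DCT by log2 0.42 ± 0.08, a call lost with DESeq2, without the block and over promoters alone. Umod, which encodes uromodulin and is best known from the loop of Henle, had 0.459, 0.551 and 0.652 in DCT and 0.218, 0.292 and 0.339 in CNT (log2 0.93 ± 0.16, not called by DESeq2 or after each nucleus was thinned to 1000 open peaks), against a mean of 1.55 ± 0.28 (SD, n = 3) in the loop cluster. Slc41a1, a magnesium exchanger, was the member called higher in CNT (log2 -0.39 ± 0.13, edgeR adjusted p = 0.049), a call lost without any of the 3 samples.

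Genes of calcium handling were called in CNT. Of 14 listed and tested genes 9 were called higher in CNT (background 6.46%) and 0 in DCT (background 5.39%; also 0 at an unadjusted edgeR p under 0.05 and 0 by DESeq2), and their median log2 fold change was -0.57, with 4 of the 9 called by DESeq2. The 9 include Trpv5, which had named the cluster, and Calb1, S100g and Slc8a1, which were among the CNT markers of the name check. Trpv5 (chr6:41652173-41680769) had 0.108, 0.121 and 0.126 open calls per 10000 in DCT and 1.31, 0.865 and 1.16 in CNT, a log2 fold change of -3.16 ± 0.17. Just upstream of it, 3 peaks that begin within 2 kb of the start were open in at most 3.23% of DCT nuclei of any sample, and in 6.46% to 30.1% of CNT nuclei. Calb1, the cytosolic calcium carrier calbindin-D28k, had 1.19, 0.408 and 0.893 in DCT and 2.09, 1.36 and 1.41 in CNT (log2 -0.91 ± 0.12, edgeR adjusted p = 2.46e-07). Its start site was not called (log2 -0.34 ± 0.18), and 3 peaks in the gene body were, of which DESeq2 called 1. The difference between start site and gene body was not tested. S100g, the smaller carrier calbindin-D9k, has a single peak, at its start. That peak was open in 1.98%, 3.58% and 4.15% of DCT nuclei and 15.7%, 13.6% and 22.2% of CNT nuclei (log2 -2.17 ± 0.27, edgeR adjusted p = 8.6e-12). No DCT value of S100g reached the lowest CNT value.

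Slc8a1, the sodium calcium exchanger of the basolateral membrane, had 1.38, 1.82 and 1.68 open calls per 10000 in DCT and 6.96, 6.31 and 4.00 in CNT (log2 -1.60 ± 0.09, edgeR adjusted p = 3.18e-16). All CNT values lay above all DCT values. Of its 8 tested peaks 5 were called more open in CNT by edgeR and 2 of these by DESeq2, the start site not among the latter. The start site differed less, with 5.94%, 6.84% and 13.8% of DCT nuclei and 14.5%, 12.2% and 25.9% of CNT nuclei (log2 -0.80 ± 0.20), than an intronic peak 1571 bases from the nearest start (chr17:81671506-81672010), with 0%, 0.326% and 4.38% against 20.5%, 9.18% and 21.8% (log2 -2.75 ± 0.31). The difference between the 2 peaks was not tested. Atp2b4, a plasma membrane calcium pump, was higher in CNT by log2 -0.57 ± 0.12, a call lost without P56 sample 2, and Ryr2, a calcium release channel, by log2 -1.07 ± 0.19, lost likewise. Both calls were also lost with DESeq2, without the block and over promoters alone. Atp2b1, another calcium pump, did not pass (log2 0.19 ± 0.11), and Trpv6, the channel most like TRPV5, had log2 -1.31 ± 0.46 (edgeR adjusted p = 0.0576).

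**Figure D2:**
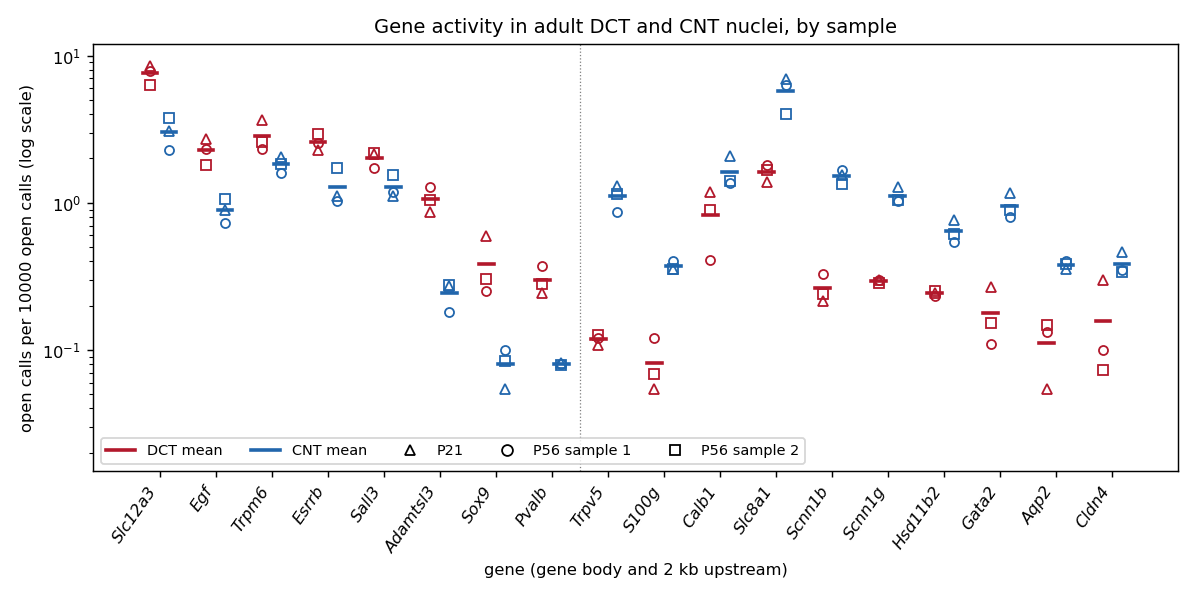
Gene activity of 18 genes (open calls per 10000 open calls of the cluster, log axis) in each of the 3 adult samples, DCT and CNT drawn side by side. Slc12a3 ran from 6.34 to 8.50 in DCT and from 2.28 to 3.75 in CNT, and Trpv5 from 0.108 to 0.126 in DCT and from 0.865 to 1.31 in CNT.

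In the ENaC and aldosterone list, the channel's beta and gamma subunits were called, and its alpha subunit and the mineralocorticoid receptor were not. The difference between these genes was not tested. All 16 genes were tested, 6 were called higher in CNT (background 6.46%) and 1 in DCT (background 5.39%), the median log2 fold change was -0.13, and DESeq2 called 3. Of the 6, Scnn1b, Scnn1g, Hsd11b2 and Klk1 were also among the CNT markers of the name check. Scnn1b, the beta subunit, had 0.216, 0.330 and 0.240 in DCT and 1.55, 1.68 and 1.35 in CNT (log2 -2.49 ± 0.13, edgeR adjusted p = 1.54e-17). Part of its peaks also lie in the overlapping gene Cog7, from which its calls cannot be separated. The intronic Scnn1b peak printed above was open in 1.98%, 2.28% and 4.15% of DCT nuclei and 24.1%, 26.9% and 31.6% of CNT nuclei (log2 -3.04 ± 0.23, edgeR adjusted p = 1.5e-25). Scnn1g, the gamma subunit, had 0.297, 0.297 and 0.286 in DCT and 1.28, 1.04 and 1.05 in CNT (log2 -1.89 ± 0.14), and Hsd11b2, the enzyme that shields the mineralocorticoid receptor from glucocorticoids, 0.243, 0.231 and 0.252 against 0.761, 0.543 and 0.611 (log2 -1.32 ± 0.17). None of these groups overlapped. Scnn1a, the alpha subunit (log2 -0.13 ± 0.09), and Nr3c2, the mineralocorticoid receptor (log2 -0.18 ± 0.07, edgeR adjusted p = 0.0851), were not called. Nr3c1, the glucocorticoid receptor, was the member higher in DCT, with 1.29, 1.31 and 1.00 against 0.734, 0.633 and 0.653 (log2 0.76 ± 0.12). Tmprss2, a membrane protease, was higher in CNT by log2 -0.46 ± 0.08. Neither Nr3c1 nor Tmprss2 was called by DESeq2 or after thinning, nor Hsd11b2 after thinning, nor Tmprss2 without the block. Klk1, tissue kallikrein, was called at log2 -0.54 ± 0.14, but its groups overlapped (0.496 to 0.647 in DCT, 0.553 to 0.841 in CNT) and the call was lost with DESeq2, without the block, after thinning and without P56 sample 2.

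Channels for potassium showed no common direction. Of 10 listed genes 9 were tested, 2 were called higher in DCT (background 5.39%) and 2 in CNT (6.46%), the median was -0.07, and DESeq2 called 1 of the 4. Kcne1, a beta subunit of the KCNQ1 channel, had a start site open in 0%, 1.95% and 1.84% of DCT nuclei and 7.23%, 7.14% and 10.9% of CNT nuclei (log2 -2.29 ± 0.43, edgeR adjusted p = 1.0e-05), and Kcnq1 itself was higher in CNT by log2 -0.37 ± 0.07. Without the block, after thinning and over promoters alone the calls of Kcnq1, Kcnk5 and Kcnh1 were lost. Kcnk5 (log2 0.68 ± 0.13) and Kcnh1 (log2 0.57 ± 0.14), 2 further potassium channels, were higher in DCT, the former not without P56 sample 2 and the latter not without P56 sample 1. Kcnj1, the secretory channel ROMK (log2 -0.07 ± 0.08), and Kcnma1, the large-conductance BK channel (log2 -0.10 ± 0.12), were not called. Of 10 genes for water transport and vasopressin, 6 were tested, 3 were called higher in CNT and 1 in DCT, against the same backgrounds, 6.46% and 5.39%, and DESeq2 called 1 of the 4. Aqp2, the vasopressin-regulated water channel, had a start site open in 0%, 1.63% and 1.38% of DCT nuclei and 10.8%, 8.50% and 16.5% of CNT nuclei (log2 -3.13 ± 0.40, edgeR adjusted p = 4.7e-11). Its gene activity was 0.379 ± 0.024 (SD, n = 3) in CNT and 1.03 ± 0.081 in the principal cell cluster, so CNT stood between DCT (0.112 ± 0.051) and principal cells. Aqp3, a basolateral water channel (log2 -1.44 ± 0.28), and Adcy3, an adenylyl cyclase (log2 -0.92 ± 0.23), were higher in CNT, but the call was lost without P56 sample 1 for Aqp3 and without either P56 sample for Adcy3. Pde4d, a cAMP phosphodiesterase, was higher in DCT (log2 0.38 ± 0.07), a call lost without the block and after thinning.

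Among claudins and adhesion molecules, 12 of 13 were tested, 4 were called higher in CNT (background 6.46%) and 1 in DCT (background 5.39%), and DESeq2 called 1 of the 5. Cldn4, a claudin of the chloride pathway between collecting duct cells, had 0.297, 0.0991 and 0.0725 in DCT and 0.462, 0.352 and 0.339 in CNT (log2 -1.79 ± 0.27, edgeR adjusted p = 4.87e-06). Cdh16, kidney-specific cadherin, differed less but without overlap, with 1.40, 1.24 and 1.44 against 1.96, 1.78 and 2.16 (log2 -0.57 ± 0.08), a call lost with DESeq2 and over promoters alone. The calls of Cldn3 (log2 -0.39 ± 0.13) and Cldn16 (log2 -1.40 ± 0.40) were lost without either P56 sample. Cldn10, the member higher in DCT (log2 0.94 ± 0.18), overlapped between the groups, with 0.701, 1.00 and 0.630 in DCT and 0.979, 0.523 and 0.200 in CNT, and was not called without P56 sample 2.

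Transcription factors were called on both sides in gene activity. Of 42 listed genes 37 were tested, 3 were called higher in DCT and 7 in CNT, against 5.39% and 6.46% of all genes tested, and the median log2 fold change was 0.00. DESeq2 called 3 of the 10. On the DCT side stood Esrrb, an orphan nuclear receptor, with 2.29, 2.53 and 2.94 in DCT and 1.11, 1.03 and 1.72 in CNT (log2 0.92 ± 0.09, edgeR adjusted p = 2.12e-10). It has several start sites, and the difference between them was not tested. The first, at chr12:86360917-86361423, was open in 23.8%, 11.7% and 43.8% of DCT nuclei and 3.61%, 2.04% and 12.8% of CNT nuclei (log2 2.08 ± 0.19). The start sites further along the gene were not called, with log2 0.30 ± 0.22 and -0.07 ± 0.30. Sall3, a zinc finger factor, was higher in DCT by log2 0.53 ± 0.09, a call lost with DESeq2, without the block, after thinning and over promoters alone. Prox1, a homeobox factor that is not in this list, was not called in gene activity. It had a start site open in 5.94%, 7.17% and 17.3% of DCT nuclei and 0%, 2.38% and 5.64% of CNT nuclei (log2 1.81 ± 0.31).

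On the CNT side the largest difference among these factors was that of Gata2, a zinc finger factor, with 0.270, 0.110 and 0.153 in DCT and 1.17, 0.804 and 0.889 in CNT (log2 -2.55 ± 0.17, edgeR adjusted p = 9.75e-15). Its exonic peak (chr6:88201312-88202007) was open in 4 DCT nuclei and 98 CNT nuclei in all. Per open call this was a ratio of 31.7 with an exact 95% interval of 12 to 118.6, which pools the nuclei of the 3 samples and covers counting error only. The peak was among the 8 picked for the largest change towards CNT, so a large ratio follows from the choice. The same peak was open in 21.4% of principal cell and 19.6% of intercalated cell nuclei. Elf5, an epithelial ETS factor of principal cells, was higher in CNT by log2 -1.12 ± 0.22, a call lost without P56 sample 1, with DESeq2 and without the block. Ehf, a related ETS factor, had 0.432, 0.584 and 0.496 in DCT against 0.952, 1.12 and 0.816 in CNT (log2 -0.85 ± 0.12), a call lost after thinning. Pax8, a factor of the renal epithelium at large, was higher in CNT by log2 -0.51 ± 0.11 but not without P56 sample 2, with DESeq2, without the block, after thinning or over promoters alone. Tfap2a (log2 -0.09 ± 0.08) and Sall1 (log2 0.25 ± 0.11) were not called.

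Ligands and receptors of the Notch, Wnt, BMP and growth factor pathways were all tested (20 genes), with 3 called on each side (background 5.39% in DCT and 6.46% in CNT) and a median log2 fold change of 0.02, and DESeq2 called 2 of the 6. Within the Notch pathway the receptor Notch1 (log2 0.50 ± 0.09) and the ligand Jag1 (log2 0.64 ± 0.11) were higher in DCT, while the receptor Notch2 (log2 -0.38 ± 0.08) and the target gene Heyl (log2 -2.22 ± 0.40) were higher in CNT. The difference of Notch2 turned to 0.062 over promoters alone, and the calls of Notch1, Notch2, Jag1 and Erbb4 were lost with DESeq2, without the block and after thinning. Jag1 had 1.59, 1.08 and 1.24 in DCT and 1.03, 0.875 and 0.683 in CNT, without overlap, and its call was lost without P56 sample 2. Bmpr1b, a type I BMP receptor, had 0.620, 0.771 and 0.488 in DCT and 1.47, 1.67 and 0.919 in CNT (log2 -1.04 ± 0.11, edgeR adjusted p = 4.72e-09), and its intronic peak printed above was open in 0%, 0.977% and 0.922% of DCT nuclei and 7.23%, 7.14% and 9.77% of CNT nuclei. The BMP ligand gene Bmp6, which is not in this list, was not called in gene activity. A peak at its start (chr13:38346116-38347662) was open in 16.8%, 6.84% and 19.6% of DCT nuclei and 2.41%, 2.04% and 2.63% of CNT nuclei (log2 2.63 ± 0.32). Erbb4, a receptor of the EGF family, was higher in DCT (log2 0.48 ± 0.09), a call lost without P56 sample 2.

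Of 16 hormone and paracrine receptors 11 were tested, with 1 called higher in DCT and 2 in CNT, against 5.39% and 6.46% of all genes tested, and DESeq2 called 1 of the 3. Adrb1, the beta-1 adrenergic receptor, had 0.944, 0.341 and 0.599 in DCT and 0.136, 0.181 and 0.327 in CNT (log2 1.09 ± 0.19, edgeR adjusted p = 4.9e-05). Ptger1, a prostaglandin E2 receptor, had 0.297, 0.198 and 0.225 in DCT against 0.544, 0.654 and 0.454 in CNT (log2 -1.21 ± 0.18), and Ednrb, the endothelin B receptor, was higher in CNT by log2 -0.90 ± 0.16. After thinning all 3 calls were lost, and without the block those of Adrb1 and Ednrb. Of the 12 genes for mitochondria and energy, 11 were tested, 2 were called higher in DCT and 1 in CNT, against the same 5.39% and 6.46%. Ckb, the cytosolic creatine kinase, had 0.620, 0.551 and 0.561 in DCT and 0.272, 0.221 and 0.308 in CNT (log2 1.00 ± 0.17), Acsl1, which activates fatty acids, was higher in DCT by log2 0.30 ± 0.08, and Pgam2, a glycolytic enzyme gene, was higher in CNT by log2 -0.43 ± 0.12. DESeq2 called 0 of the 3 (1 of the 11 at an unadjusted DESeq2 p under 0.05). The call of Acsl1 was also lost without either P56 sample, that of Pgam2 without P56 sample 2 and that of Ckb after thinning.

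The 10 genes with the largest changes on each side were taken from all genes called in the same direction in 3 samples. In DCT they were Rasgrp3, Mmp20, Adamtsl3, Adamts15, Colq, Fads2, Gm4952, Pvalb, Sox9 and Lrit3, with log2 fold changes from 2.42 to 1.79. Of these, Adamtsl3, Pvalb and Sox9 had their highest mean in DCT among the 13 cell types. Adamts15, Fads2, Gm4952 and Lrit3 had it in 1 of the 2 proximal tubule clusters, Rasgrp3 and Colq in endothelium and Mmp20 in the loop of Henle. Such means can lie within each other's spread, as for Lrit3 in proximal tubule (0.590 ± 0.114, SD, n = 3) and the loop of Henle (0.526 ± 0.030). Adamtsl3, which encodes a secreted glycoprotein of the ADAMTS-like family, had 0.863, 1.29 and 1.05 in DCT and 0.272, 0.181 and 0.278 in CNT (log2 2.14 ± 0.16, edgeR adjusted p = 1.44e-13). The SOX family factor Sox9 had 0.593, 0.253 and 0.301 against 0.0544, 0.101 and 0.0847 (log2 1.87 ± 0.29), from the peak at its start. In both genes the groups did not overlap. In Fads2, a fatty acid desaturase gene, they did, as the lowest DCT value was 0.244 (P56 sample 2) and the highest CNT value 0.326 (P21 sample). The calls of Rasgrp3 and Gm4952 were lost with DESeq2, and those of Fads2 and Gm4952 without the block.

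In CNT the 10 genes were Llcfc1, Hspb8, Trpv5, Fshr, Wscd2, Sept3, Ptchd4, Gata2, Scnn1b and BC030870, with log2 fold changes from -3.57 to -2.46. The single peak of Llcfc1 also lies upstream of Trpv5, so its value is not separate from that of Trpv5. Llcfc1, Trpv5, Fshr and Scnn1b had their highest mean in CNT among the 13 types, but Fshr did not differ beyond its spread between CNT (0.315 ± 0.19), the loop of Henle (0.314 ± 0.11) and principal cells (0.308 ± 0.08), nor Scnn1b between CNT and principal cells. Sept3 and BC030870 had their highest mean in principal cells, Wscd2 in intercalated cells, Hspb8 and Ptchd4 in podocytes and Gata2 in endothelium. Hspb8 did not differ beyond its spread between podocytes (0.393 ± 0.145) and CNT (0.389 ± 0.078). Nor did Gata2 between endothelium (1.56 ± 0.16) and principal cells (1.53 ± 0.22). Wscd2 had 0.0539, 0.242 and 0.107 in DCT and 0.680, 1.31 and 1.1 in CNT (log2 -3.05 ± 0.17, edgeR adjusted p = 1.06e-16), with 3 neighbouring intronic peaks each open in at most 0.461% of DCT nuclei and in 4.82% to 11.7% of CNT nuclei. Fshr, annotated as the receptor of follicle-stimulating hormone, had 0.0270, 0.0661 and 0.0153 in DCT and 0.272, 0.523 and 0.151 in CNT (log2 -3.11 ± 0.39).

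The 8 peaks with the largest changes towards DCT were chosen for that change, so a sharp contrast follows from the choice. Few CNT nuclei were open at them, and peaks were not compared with genes. The printed distal peak, 193654 bases from the start of Sox9, was open in 5.94%, 4.23% and 6.91% of DCT nuclei and in none of the CNT nuclei. Set against the 3 nuclei that a count of 0 allows over the 3 samples together, DCT was at least 12.6-fold higher per open call. In the other cell types its mean was at most 0.741%. The printed Ptprn2 intron was open in 15.8%, 10.4% and 23.7% of DCT nuclei and 0%, 0% and 1.5% of CNT nuclei (log2 4.75 ± 0.41, edgeR adjusted p = 1.48e-21), and the printed Adamtsl3 intron in 9.90%, 10.7% and 17.7% against 0%, 0.34% and 2.26% (log2 3.70 ± 0.39). Neither exceeded a mean of 2.43% in a cell type other than these 2. The Reep3 peak, the last of the 8 on this side, was open in a mean of 5.33% of DCT nuclei and also in 4.46% of the loop of Henle.

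Among the 8 peaks with the largest change towards CNT, several were open in the collecting duct too. The start site of St6gal1, a sialyltransferase gene (chr16:23269340-23270279), was open in 14.5%, 11.9% and 15.4% of CNT nuclei and 0%, 0% and 0.691% of DCT nuclei, and in a mean of 16.0% of principal cells and 8.77% of intercalated cells. A Kif26b intron was open in 9.64%, 7.48% and 8.27% of CNT nuclei and in 18.1% of principal cells, and the printed distal Anxa1 peak in 7.23%, 6.80% and 8.65% and in 11.2%. By contrast the distal peak nearest Malt1 was open in 19.3%, 9.18% and 17.3% of CNT nuclei and in 3.67% of principal cells, the one nearest Sva in 9.64%, 6.12% and 7.14% and in 1.33%, and the one nearest Fzd7 in a mean of 6.35% and in 2.28%. Whether the 2 sides differ in this was not tested. The 16 named peaks were chosen as the largest called changes with the same direction in all 3 samples. That their DCT and CNT values did not overlap and that DESeq2 called all 16 is thus no separate support. Among all tested peaks DESeq2 called 966 of the 3417 that edgeR called.

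**Figure D3:**
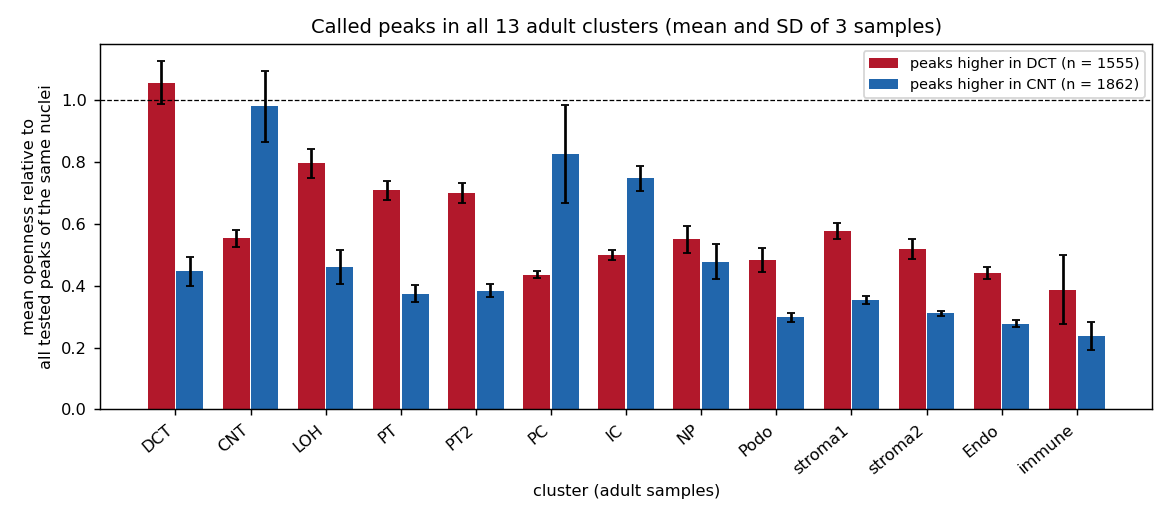
Mean openness of the called peaks in each of the 13 cell types, as a ratio to all 22742 tested peaks in that type (mean of 3 adult samples, bars SD). Peaks higher in DCT stood at 1.06 in DCT itself, 0.80 in the loop of Henle and 0.44 in principal cells. Peaks higher in CNT stood at 0.98 in CNT itself, 0.83 in principal cells and 0.46 in the loop of Henle.

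Over all called peaks, the mean openness of a peak set was divided by that of all tested peaks in the same cell type, since cell types differ in depth. For the 1555 peaks higher in DCT this ratio was 1.06 ± 0.07 (SD, n = 3) in DCT itself and 0.55 ± 0.03 in CNT. It was 0.80 ± 0.05 in the loop of Henle, 0.71 ± 0.03 in PT and 0.70 ± 0.03 in PT2, the 2 proximal tubule clusters. In principal cells it was 0.44 ± 0.01, beside 0.44 ± 0.02 in endothelium, 0.48 ± 0.04 in podocytes and 0.39 ± 0.11 in immune cells. For the 1862 peaks higher in CNT the ratio was 0.98 ± 0.12 in CNT itself and 0.45 ± 0.05 in DCT. It was 0.83 ± 0.16 in principal cells, 0.75 ± 0.04 in intercalated cells, 0.46 ± 0.05 in the loop of Henle and 0.37 ± 0.03 in PT. All tested peaks held more start sites (49.8%) than the DCT (21.6%) and CNT (17.4%) peaks, and the part of this in the ratios was not tested. Leaving DCT and CNT aside, the loop of Henle was the most open type at 32.7% of the DCT peaks, against 11.3% of all tested peaks. Principal cells were the most open type at 34.8% and intercalated cells at 27.8% of the CNT peaks, against 8.17% and 9.14% of all tested peaks. DCT was the most open of the 13 types at 42.8% of its peaks and CNT at 40.6% of its own, against 8.53% and 8.64% of all tested peaks. The peaks had been chosen as more open in one cluster than in the other, which raises these 2 shares by construction.

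**Figure D4:**
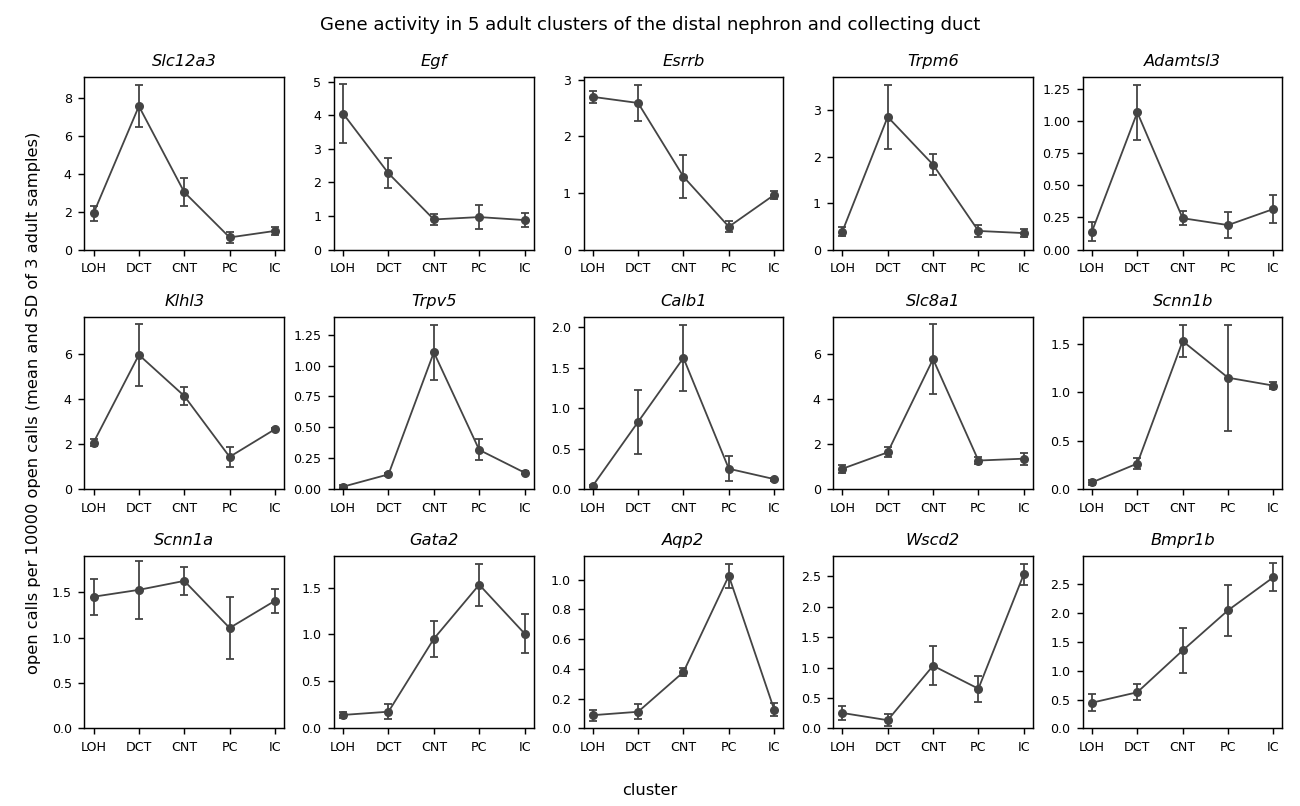
Gene activity of 15 genes (open calls per 10000, mean of 3 adult samples, bars SD) over the loop of Henle (LOH), DCT, CNT, principal cell (PC) and intercalated cell (IC) clusters. Egf fell from 4.05 in LOH to 2.27 in DCT and 0.897 in CNT, and Aqp2 rose from 0.112 in DCT to 0.379 in CNT and 1.03 in PC.

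Along the order of the nephron the genes fell into several patterns, given here as means of 3 samples ± SD of open calls per 10000. Slc12a3 was highest in DCT (7.58 ± 1.1), with 3.03 ± 0.73 in CNT, 1.91 ± 0.38 in the loop of Henle and 0.64 ± 0.29 in principal cells. Trpm6 (2.86 ± 0.69 in DCT, 1.83 ± 0.22 in CNT) and Sall3 (2.01 ± 0.26 and 1.28 ± 0.23) were high in both segments and at most 0.478 in the loop of Henle, principal cells and intercalated cells. Esrrb was shared with the loop, at 2.70 ± 0.10 there, 2.59 ± 0.33 in DCT and 1.29 ± 0.38 in CNT, and the first 2 did not differ beyond their spread. Trpv5 (1.11 ± 0.22) and Slc8a1 (5.76 ± 1.6) were highest in CNT, with 0.317 ± 0.085 and 1.26 ± 0.17 in principal cells. Scnn1b was high from CNT onwards, at 1.53 ± 0.17 in CNT, 1.15 ± 0.55 in principal cells and 1.07 ± 0.04 in intercalated cells. The spread of principal cells overlapped that of both other clusters.

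Many nuclei had at least 1 open peak both in Slc12a3 and in a set of CNT genes. Slc12a3 has 15 peaks in the list and Slc8a1, in the CNT set, has 64. Whether both occurred together more often than their separate shares imply was not tested. Shares of other cell types open in the CNT set are not given here. At least 1 Slc12a3 peak was open in 98.0%, 95.1% and 98.2% of DCT nuclei and in 61.4%, 42.5% and 71.4% of CNT nuclei. At least 1 peak of Trpv5, Scnn1b, Scnn1g or Slc8a1 was open in 90.4%, 89.1% and 92.5% of CNT nuclei and in 44.6%, 47.6% and 61.1% of DCT nuclei. Nuclei with both made up 43.6%, 45.9% and 59.9% of DCT and 55.4%, 39.8% and 66.5% of CNT. They were deeper than nuclei with 1 of the 2 alone, with a median of 3110 against 2267 open peaks in DCT of P56 sample 1, for example. The part of depth and of stray fragments in these shares was not tested, and in the 11 types other than DCT and CNT the mean Slc12a3 activity ran from 0.561 per 10000 in podocytes to 2.02 in PT2, against 3.03 in CNT.

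The called peaks differed from the tested ones in their place in the genome. Start sites made up 21.6% of the peaks higher in DCT and 17.4% of those higher in CNT, against 49.8% of all tested peaks. Introns held 39.9% and 40.6% against 24.7%, and distal positions 26.2% and 27.7% against 15.4%. The median distance to the nearest start was 11.3 and 10.8 kb against 0.871 kb, and the median GC content of the central 300 bases was 51.3% and 51.0% against 56.3%. Of 131 genes with at least 3 called peaks, 32 had all of them higher in DCT, 47 had all higher in CNT and 52 had peaks in both directions. After Slc12a3 the largest net counts towards DCT were in Tns1 (7 higher and 1 lower of 32), Stk32b (5 of 6) and Plxna4 (5 of 5), and Abr (6 of 9) and Tbc1d1 (6 of 18) were among the largest towards CNT.

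Short sequence words were counted in the central 300 bases of the peaks, on both strands, as a description without a test, over 16 words in all, none of the 3 given first containing another. AGATAA was found in 14.4% of the peaks higher in CNT, 8.10% of those higher in DCT and 7.97% of all tested peaks. Among intronic and distal peaks alone the shares were 17.2%, 9.05% and 12.6%. AAGGTCA was found in 11.6% of the DCT, 9.88% of the CNT and 6.94% of all tested peaks, and in 13.1%, 10.3% and 10.9% among intronic and distal ones. GTTAAT was found in 17.8%, 12.3% and 9.35%, and in 20.3%, 14.2% and 16.2% among intronic and distal ones. ACANNNTGT, the core spacing of steroid receptor sites, had 9.90%, 7.30% and 5.77%, and 12%, 8.26% and 9.37% among intronic and distal ones. TTGGCA, an NFI word, had 21.3%, 17.7% and 14.6%, and 23.6%, 17.5% and 20.2% among those. The word GGGCGGG of KLF and SP factors was less frequent in called peaks, at 10.7% and 9.18% against 25.5%, and at 4.38%, 4.72% and 7.36% among intronic and distal peaks. The Sox9 and Adamtsl3 sequences above hold AAGGTCA and GTTAAT, the Bmpr1b sequence holds AGATAA and GTTAAT, and the Anxa1 sequence AGATAA. A match is no proof of a bound site.

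**Figure D5:**
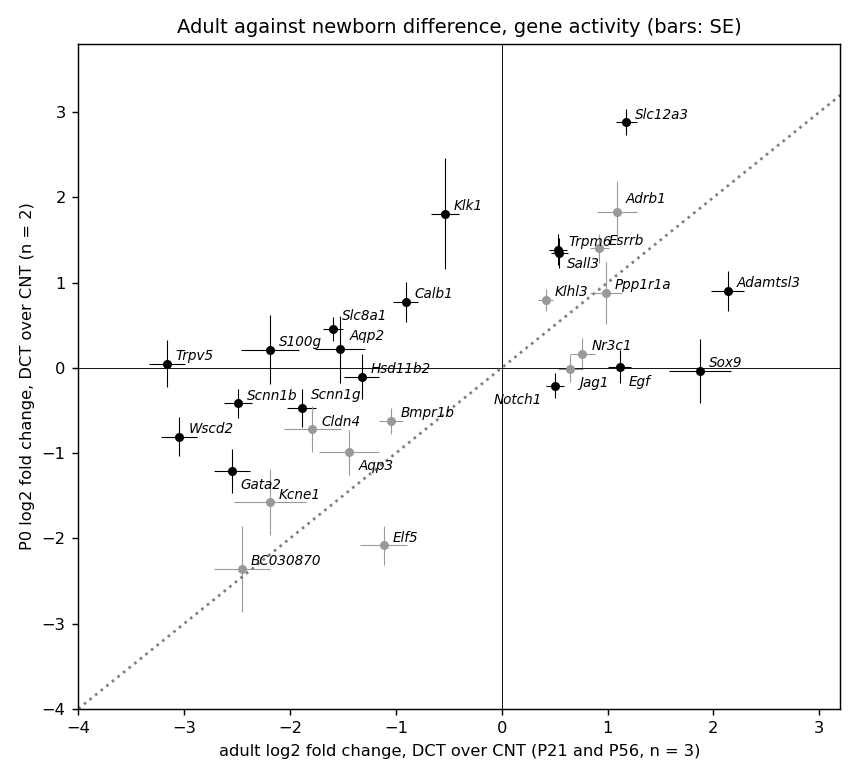
Log2 fold change of gene activity, DCT over CNT, in adult (x axis) and P0 (y axis) samples for 30 genes, bars SE from edgeR. Genes with a called difference between the stages are black and others grey, with Trpv5 at -3.16 in adult and 0.05 at P0 and Slc12a3 at 1.18 and 2.88.

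The P0 samples, which did not enter the adult contrast but were clustered with it, hold 51 and 57 DCT and 135 and 101 CNT nuclei. Of the adult DCT peaks 576 could be tested at P0, where 434 (75.3%) lay in the same direction and 106 were called so, with 1 called the other way. Of the adult CNT peaks 969 could be tested, 659 (68.0%) lay in the same direction, 67 were called so and 7 the other way. Over all peaks tested at P0, 3.57% were called in either direction. In gene activity 394 of 684 DCT genes (57.6%) and 574 of 833 CNT genes (68.9%) kept their direction, with 52 and 95 called so and 8 and 8 called the other way. Of the DCT genes with at least 2-fold changes in adult, 42 of 86 (48.8%) kept it, and of such CNT genes 176 of 210 (83.8%). Of the peaks with at least 2-fold changes, 75.6% (DCT) and 77.3% (CNT) did. Over everything tested at both stages, called or not, 55% of genes and 55.3% of peaks lay in the adult direction at P0. Of all genes tested at P0, 2.95% were called. Esrrb (log2 1.40 ± 0.17 at P0), Klhl3 (0.80 ± 0.13) and Bmpr1b (-0.62 ± 0.15) were called in the same direction at both stages.

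By its markers the P0 cluster named CNT did not bear out that name, which is kept here as deposited. The sum over the 8 CNT markers was 6.43 and 5.04 in P0 DCT and 5.06 and 4.82 in P0 CNT. The sum over principal cell markers was 2.61 and 2.04 in P0 DCT and 4.33 and 4.03 in P0 CNT, the latter above the 3.01 to 3.18 of adult CNT, and its part in the stage differences was not tested. Of the 8 CNT markers, 0 were called higher in CNT at P0 and 1 higher in DCT by edgeR, with 1 and 3 at an unadjusted p under 0.05. Trpv5 had 0.395 and 0.393 open calls per 10000 in P0 DCT and 0.376 and 0.353 in P0 CNT (log2 0.05 ± 0.28), S100g did not pass (log2 0.21 ± 0.41), and Slc8a1 was higher in DCT, with 2.69 and 2.04 against 1.65 and 1.64 (log2 0.46 ± 0.14, edgeR adjusted p = 0.0475). Scnn1b had 1.05 and 0.884 in P0 DCT and 1.30 and 1.17 in P0 CNT (log2 -0.41 ± 0.17). Slc12a3 did separate the clusters, with 3.40 and 3.76 in P0 DCT and 0.399 and 0.529 in P0 CNT (log2 2.88 ± 0.15). Its stage difference (adult minus P0, -1.72) was called by edgeR but not by DESeq2 (adjusted p = 0.161) or by edgeR without P0 sample 1 (adjusted p = 0.0656). Tested as a cluster-by-stage difference, 391 genes (2.62%) and 366 peaks (1.24%) passed by edgeR. The differences of Trpv5 (-3.22 ± 0.38), Scnn1b (-2.08 ± 0.23) and Slc8a1 (-2.06 ± 0.21) were also called by DESeq2, without either P0 sample and with the P56 samples alone.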

How the data were processed

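Nuclei of mouse kidneys at P0, P21 and P56 had been profiled by snATAC-seq. The authors aligned reads to mm10 (GRCm38) with Cell Ranger ATAC 1.1.0, clustered nuclei with SnapATAC on 5 kb bins after Harmony correction across samples, called peaks per cell type with MACS2 and merged them. The deposited matrix holds binarized counts, 1 where a nucleus has a fragment in a peak, which are not scaled for depth. Peak positions (1-based, entered as a score because they are coordinates) and the sample and cluster of each nucleus came from tables that the authors deposited. Doublet removal was not given in the sources used here. The single-cell RNA annotation and the UMAP coordinates were not used, and no expression values were analysed here.

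Open calls were summed per sample and cluster, so that the sample was the replicate. Gene activity summed the peaks in the gene body and 2 kb upstream of 18244 protein-coding genes, and a peak in 2 genes counted for both. Sums were tested with edgeR 4.0.16 in R 4.3.3 (glmQLFit, TMM, filterByExpr at 10 counts and a total of 15, Benjamini-Hochberg at 0.05), with the sample as a block because both clusters of a sample came from the same library. P0 sums entered a fit of cluster, sample and the cluster-by-stage term. With 3 pairs no exact permutation test can reach 0.05, so none was made for single values. Intervals and the floor of 3 counts cover counting error only. The test was checked on simulated counts, and a feature that was not called may still differ.

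Alternatives were DESeq2 1.42.0, 2 other scalings, 2 other filters, no block, each sample left out, equal numbers of nuclei, nuclei thinned to 1000 open peaks, Fisher's exact test over nuclei, promoter regions, and peaks of a single gene. Genomic elements came from GENCODE gene models of the same build, and sequences from the GRCm38 reference, in which 500 of 500 RefSeq promoter sequences matched; 22733 of 22742 tested peaks had a window. The members, gene lists and tests were chosen with earlier results of these data known. Genes were named if they belonged to a list (at most 6 called and 2 not called each), were among the 10 largest changes each way with at least 0.05 open calls per nucleus in the higher cluster, or had named the clusters, and peaks if among the 8 largest each way and open in at least 5% of the higher cluster's nuclei. Some listed genes are not reported here. Peaks of listed genes described in the text were chosen after their values were seen. Prox1 and Bmp6, which met none of the rules for naming genes, were described for a peak at their start, likewise chosen after its values were seen.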

Additional observations from a re-analysis of the deposited data

Results flagged for a closer look

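Each gene and peak in this paragraph is given because its DCT against CNT difference was not the same in adult and P0 kidneys by edgeR's test of the cluster-by-stage term (Benjamini-Hochberg adjusted over 14919 genes, or 29552 peaks). Values are the adult minus the P0 log2 fold change, DCT over CNT. Genes whose difference moved towards CNT in adult kidneys were Llcfc1 (-4.60), Trpv5 (-3.22), Hspb8 (-2.73), S100g (-2.41), Klk1 (-2.37), Fshr (-2.34), Wscd2 (-2.24), Scnn1b (-2.08), Slc8a1 (-2.06) and Ptchd4 (-2.05). Smaller shifts in that direction were those of Aqp2 (-1.74), Slc12a3 (-1.72), Calb1 (-1.69), Pgam2 (-1.59), Scnn1g (-1.43), Gata2 (-1.34), Ryr2 (-1.25), Hsd11b2 (-1.22), Kcnj1 (-1.09), Sall3 (-0.86), Trpm6 (-0.81) and Nr3c2 (-0.63). For Slc12a3, Trpm6 and Sall3, which were higher in DCT at both stages, this is a smaller adult excess of DCT. The single peak of Llcfc1 also counts for Trpv5, so these genes are not separate entries. Trpv5 and Slc12a3 had also served the study to name the clusters. Genes whose difference moved towards DCT in adult kidneys were Rasgrp3 (3.31), Colq (2.65), Fads2 (2.64), Adamts15 (2.55), Sox9 (1.89), Adamtsl3 (1.22), Egf (1.09), Kcnk5 (1.07), Egfr (0.98), Notch1 (0.71) and Erbb4 (0.70). Among the peaks, the Gata2 exonic peak (-3.50) and the distal peak nearest Fzd7 (-3.39) moved towards CNT.

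The P0 clusters hold 51 to 135 nuclei each, against 83 to 434 in the adult samples, and stage cannot be told apart from other differences between the libraries. DESeq2 called 9 genes more CNT-high in adult and 0 more DCT-high (208 and 177 at an unadjusted p under 0.05), and Trpv5, Scnn1b and Slc8a1 were among its calls. Of the 11 genes that moved towards DCT none kept its edgeR call under both omissions of a P0 sample, as Colq and Fads2 kept it without P0 sample 1 and Egfr and Rasgrp3 without P0 sample 2. Of the 22 that moved towards CNT, Scnn1b, Slc8a1 and Trpv5 kept it under both. With the P56 samples alone as adult, the calls of Sox9 and Hsd11b2 were lost (edgeR adjusted p = 0.0572 and 0.0517). DESeq2 called neither peak, with DESeq2 adjusted p of 0.27 (Gata2) and 0.361 (Fzd7). In the P0 cluster named CNT the CNT markers were not above those of P0 DCT, and the principal cell markers were, at 4.33 and 4.03 against 2.61 and 2.04.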

How the results depend on the processing

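With DESeq2's size factors, with library totals and with equal numbers of nuclei, counts stayed within 1.5 times of the reported ones. Peaks called higher in DCT and in CNT numbered 317 and 649 with DESeq2, 352 and 388 with a minimum count of 30, and 59 and 71 after thinning to 1000 open peaks, where fewer peaks could be tested. Leaving out 1 adult sample gave 544 to 2145 and 782 to 2886 peaks, lowest without P56 sample 2, the deepest library, and highest without the P21 sample. Genes numbered 58 and 143 with DESeq2, 101 and 153 after thinning, and 158 and 241 over promoters alone, and 319 to 880 and 465 to 898 with 1 sample left out. Without the sample as a block the pairing was lost, and 467 and 810 peaks and 91 and 200 genes were called. Of the 70 named genes called, 31 missed the threshold so and 34 with DESeq2. After thinning 20 kept their call, 25 missed the threshold, 1 turned and the rest could not be tested. Of the 16 named peaks 1 could be tested after thinning, and it kept its call. Over promoters alone 50 of the 70 could be tested, of which 15 missed it or turned, among them Klhl3, Trpm6, Sall3 and Egfr. Stage differences more DCT-high and more CNT-high in adult numbered 192 and 199 genes and 72 and 294 peaks, 0 and 9 genes and 0 and 11 peaks with DESeq2 (177, 208, 494 and 1141 at an unadjusted p under 0.05), and 23 to 37 and 18 to 53 genes and 3 to 12 and 9 to 87 peaks without 1 P0 sample. Notch2 turned to 0.062 over promoters alone (from -0.38) and Pgam2 to 0.059 after thinning (from -0.43); the cause was not tested.

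For peaks with a change of at least 2-fold, the openness ratio of DCT peaks was 0.81 in DCT itself, 0.54 in LOH, 0.52 in PT and 0.24 in principal cells. That of CNT peaks was 0.81 in CNT itself, 0.60 in intercalated cells and 0.28 in LOH. Intronic or distal peaks made up 70.6% (DCT) and 72.5% (CNT) against 66.1% and 68.3%. AGATAA then stood in 16.3% of CNT peaks and GTTAAT in 20.2% of DCT peaks. Over whole peaks, which are longer than 300 bases, the shares in DCT and CNT peaks were 25.5% and 33.6% (AGATAA), 25.9% and 22.3% (AAGGTCA) and 34.1% and 27.4% (GTTAAT).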
